A study of Mus musculus with 2 samples.

Results

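Genes of the BCL2 family, which set whether a cell survives or dies by apoptosis, were followed through single cells of mice bearing 4T1 liver metastases. They are the survival genes Bcl2, Bcl2l1, Mcl1, Bcl2a1a, Bcl2a1b and Bcl2a1d, the effector gene Bak1 and the BH3-only genes Bcl2l11, Bid and Pmaip1. They were chosen by symbol, 10 of the 32285 genes in the matrices, and all 10 were found in both. BALB/cAnNCrl mice carrying liver metastases of 4T1, a mouse mammary carcinoma line, were given CBL0137 at a low or at a high dose, or its vehicle, by hepatic arterial infusion, and cells were taken 5 days later, pooled from 2 mice per group. The sources used here do not state the low and high doses of this single-cell experiment. Of the 2 droplet libraries, 1 was labelled liver and 1 spleen, and each mixed the 3 groups, told apart by barcoded antibodies (hashtags). Vehicle cells carried A0301, low dose cells A0305 and high dose cells A0310. For staining, the methods name A0301 and an abbreviated tag taken here to be A0310, and they give the barcode of A0305 without naming it as a stain. They also describe CD11b+ bead-isolated cells, while the labels describe leukocytes.

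Each hashtag group of a library was 1 pooled sample, so no test between mice was possible and no p-value is given. Levels are given as CPM, the UMIs (unique molecular identifiers, counts of captured transcripts) of a gene per 1000000 UMIs, both totalled over every cell in 1 class and group. Cells with more UMIs thus weigh more in a class level than shallow cells. Intervals are 95% and cover counting error only, not the spread between mice. A gene was counted as changed when its CPM differed at least 2-fold, the interval of the log2 ratio did not reach 0, and both groups together held at least 20 UMIs. Classes are called X-like after markers. The liver-labelled library had 9591 barcodes and 17333148 to 26508853 UMIs per group, and the spleen-labelled library had 4830 barcodes and 7130127 to 10589251 UMIs per group. Hepatocyte markers reached 70.9 CPM in the spleen-labelled library and 0.0728 CPM in the liver-labelled library, with 4 of 6 markers at 0. The file names also run the other way round, so the labels are used only as names. The libraries shared 15 cell barcodes.

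Proteins of the BCL2 family decide whether the outer mitochondrial membrane is opened during apoptosis. Survival members (BCL2, BCL-XL from Bcl2l1, MCL1 and A1 from the Bcl2a1 genes) hold the effectors BAX and BAK in check, and BH3-only members such as BIM (Bcl2l11), BID and NOXA (Pmaip1) bind the survival members or engage the effectors. Neutrophils are short-lived cells known to rely on MCL1 and A1, and BCL2 is known to support the survival of mature lymphocytes.

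The genes lie on GRCm38 at chr1:106538178-106714274 (Bcl2), chr2:152780668-152831728 (Bcl2l1), chr3:95658788-95663176 (Mcl1), chr2:128126038-128162547 (Bcl2l11), chr17:27019810-27029009 (Bak1) and chr6:120891930-120916853 (Bid). The A1 genes are near-identical copies at chr9:88956900-88962419 (Bcl2a1a), chr9:89199209-89207827 (Bcl2a1b) and chr9:88723285-88731914 (Bcl2a1d), and their RNA can be assigned to a single copy only in part. Of the 90-base windows of their transcripts, 47.0% for Bcl2a1a, 61.5% for Bcl2a1b and 61.6% for Bcl2a1d also occurred in a transcript of another gene, against 0 for the other 7 members. The 3 copies are therefore also given as 1 sum. Reads that match several genes are left out by the counting program, so this sum is an undercount. The likeness extends to the promoters, and 100 bases of each are shown because they are nearly the same in the 3 copies and hold the same motifs. The sequences are from RefSeq on GRCm38.p6, 5′ to 3′ on the strand of the gene. The first set of capitals matches the loose pattern TGANTCA (N is any base), searched for AP-1, which reads the same on both strands. All 3 copies have A at N, and a stricter pattern with only C or G there was not searched. The second set is the ETS motif GAGGAAGT.
Bcl2a1a, chr9:88956770-88956869, plus strand: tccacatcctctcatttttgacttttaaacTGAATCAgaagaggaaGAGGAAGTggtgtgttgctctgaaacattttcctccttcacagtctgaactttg
Bcl2a1b, chr9:89199079-89199178, plus strand: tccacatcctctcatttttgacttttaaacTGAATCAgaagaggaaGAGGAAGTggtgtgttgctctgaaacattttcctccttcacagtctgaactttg
Bcl2a1d, chr9:88731895-88731994, minus strand: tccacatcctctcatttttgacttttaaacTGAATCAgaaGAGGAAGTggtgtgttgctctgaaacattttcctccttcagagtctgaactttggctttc
Promoters were taken as 300 bases from 250 before the start site. Over the bases of each pair that aligned (256, 294 and 250), they were 99.2% (Bcl2a1a and Bcl2a1b), 98.0% (Bcl2a1a and Bcl2a1d) and 98.8% (Bcl2a1b and Bcl2a1d) identical. The loose AP-1 pattern was in 7.81% and the ETS motif in 3.20% of all 32851 promoters of 300 bases, searched on both strands. The motifs of NF-kB (GGG, any 2 bases, then TTTCC, in 1.63% of promoters), FOXO (GTAAACA, 3.65%) and CRE (TGACGTCA, 1.79%) were searched too and had no match in the promoters of the A1 genes. Outside the A1 genes, an NF-kB motif was found for Mcl1 and Bcl2l1, a FOXO motif for Bcl2l11 and an ETS motif for Bak1. These are matches of letters and not sites of binding.

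Between neutrophil-like and lymphocyte-like cells (T, B and NK cell-like together), Mcl1 and Bcl2 differed in opposite directions in the vehicle group. Mcl1, whose protein is a short-lived survival member, was at 885 CPM (10578 UMIs) in 1426 neutrophil-like cells and at 318 CPM in lymphocyte-like cells of the liver-labelled library, a log2 ratio of 1.48 (1.40 to 1.55). It was at 676 and 260 CPM in the spleen-labelled library, a log2 ratio of 1.38 (1.07 to 1.70) with 361 neutrophil-like cells. Mcl1 was thus higher in neutrophil-like cells of both libraries. Over T cell-like cells alone its log2 ratio was 1.73 (1.63 to 1.83) with the liver label and 1.77 (1.34 to 2.23) with the spleen label. Over B cell-like cells it was 1.14 (1.04 to 1.245) with the liver label. With the spleen label it was 0.79 (0.35 to 1.27) over B cell-like cells, within 2-fold. Bcl2 went the other way, with 5.02 CPM (60 UMIs) in neutrophil-like and 430.7 CPM in lymphocyte-like cells of the liver-labelled library, a log2 ratio of -6.42 (-6.82 to -6.05). A single Bcl2 UMI was counted in the neutrophil-like cells of the spleen-labelled library, 0.338 CPM, beside 145 UMIs and 433.7 CPM in lymphocyte-like cells, a log2 ratio of -10.33 (-15.64 to -7.82). As a measure of transcripts from other cells, markers of T cells stood in neutrophil-like cells at 1.37% and 0.584% of their T cell-like level in the liver-labelled and spleen-labelled libraries. Bcl2 stood at 0.956% and 0.0660% of its own, below those shares in both libraries.

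The A1 sum was lower in neutrophil-like cells, 6.95 CPM (83 UMIs) against 31.7 CPM in lymphocyte-like cells of the liver-labelled library, a log2 ratio of -2.19 (-2.59 to -1.80). In the spleen-labelled library it was 12.5 against 167.5 CPM, a log2 ratio of -3.74 (-4.38 to -3.12). The lymphocyte-like value there rested on 53 UMIs in 44 T cell-like cells and 3 UMIs in 31 B cell-like cells. Taken apart, the log2 ratio was -4.23 (-4.87 to -3.59) over T and -1.15 (-2.81 to 1.19) over B cell-like cells, where the interval reached 0. In the liver-labelled library these were -1.84 (-2.31 to -1.37) and -2.51 (-2.97 to -2.05). Most of the sum in lymphocyte-like cells was Bcl2a1b, at 25.1 and 140.6 CPM. Bcl2a1a stood apart from its copies on few UMIs, with 21 in neutrophil-like and 2 in lymphocyte-like cells of the liver-labelled library (log2 ratio 2.21, 0.18 to 5.35), and with 9 and 0 UMIs in the spleen-labelled library. With the liver label it was 2.41 (-0.23 to 7.78) over T and 1.88 (-0.75 to 7.25) over B cell-like cells, and both intervals reached 0. Bcl2a1d was -1.09 (-2.52 to 0.48) over T and -3.45 (-4.54 to -2.43) over B cell-like cells there. Bcl2l1, the BCL-XL gene, was at 16.0 against 10.6 CPM and at 33.5 against 23.9 CPM, within 2-fold in both libraries. In the liver-labelled library its log2 ratio was 1.27 (0.60 to 2.02) over T and 0.07 (-0.48 to 0.66) over B cell-like cells. In the spleen-labelled library both of these intervals reached 0.

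Among the genes that promote death, Pmaip1, which encodes the MCL1 and A1 ligand NOXA, was higher in neutrophil-like cells of the liver-labelled library, 15.5 against 3.80 CPM (log2 ratio 2.03, 1.36 to 2.77). It was at 10.1 against 20.9 CPM in the spleen-labelled library, where the interval (-2.26 to 0.39) reached 0 and a mean over cells gave 1.82 in place of -1.05. The higher level in the liver-labelled library ended at clustering resolution 1.6, where the neutrophil-like class held 929 vehicle cells and the log2 ratio was 0.02. Bcl2l11, the BIM gene, was lower in neutrophil-like cells of the spleen-labelled library, 26.7 against 149.6 CPM (log2 ratio -2.49, -3.01 to -1.94), and at 27.6 against 44.2 CPM in the other, within 2-fold. Of the lymphocyte-like Bcl2l11 UMIs in the spleen-labelled library, 48 were in T and 2 in B cell-like cells. The log2 ratio there was -2.99 (-3.52 to -2.44) over T cell-like cells and 0.53 (-1.38 to 3.60) over B cell-like cells. The effector Bak1 and the caspase-8 substrate Bid were within 2-fold in both libraries. Over T cell-like cells alone, Bid was higher in the liver-labelled library (log2 ratio 1.46, 0.89 to 2.09). Bak1 was lower over them in the spleen-labelled library (-1.12, -1.89 to -0.26). Over B cell-like cells the same 2 values were -0.26 (-0.66 to 0.16) and 0.81 (-1.09 to 3.87).

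In all, 3 of the 10 members tested in the liver-labelled library were higher in neutrophil-like cells (Mcl1, Bcl2a1a and Pmaip1) and 3 were lower (Bcl2, Bcl2a1b and Bcl2a1d). Of all genes tested there, 13.1% were higher and 55.6% were lower. Of 8 members tested in the spleen-labelled library, 1 was higher (Mcl1) and 3 were lower (Bcl2, Bcl2a1b and Bcl2l11), beside 9.19% higher and 39.5% lower of all genes. The share of members that was lower is thus below or near the share of all genes in these libraries, in which S100a8 and S100a9 alone took 324158 CPM of neutrophil-like cells in the liver-labelled library. The median log2 ratio of the members was 0.36 and -0.89, and that of all genes -1.25 and -0.82. With the 20 most abundant genes left out of the totals, the median of all genes was -0.54 and -0.22, 5 members were higher and 3 lower in the liver-labelled library (19.4% and 39.4% of all genes), with Bcl2l1 and Bid added, and 2 were higher and 3 lower in the spleen-labelled library (16.1% and 23.7%), with Bcl2l1 added. Mcl1 was higher and Bcl2, Bcl2a1b and, in the liver-labelled library, Bcl2a1d were lower under both scales.

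Mcl1 made up 87.8% (87.2 to 88.4) of the UMIs of the 10 members in vehicle neutrophil-like cells of the liver-labelled library and 36.2% (34.8 to 37.6) in lymphocyte-like cells. The same shares were 83.4% (81.8 to 84.8) and 23.1% (18.9 to 27.7) in the spleen-labelled library. UMI counts are not scaled by transcript length, and capture may differ between genes, so these shares are compared between classes and not between genes. With each cell thinned to 500 UMIs, 46.4% (43.8 to 49.1) of neutrophil-like and 16.4% (13.5 to 19.6) of T cell-like vehicle cells of the liver-labelled library had an Mcl1 UMI. Unthinned shares were 98.7% and 65.7%, at median depths of 4360 and 4800 UMIs. The same check was made in the other direction. S100a8 and S100a9 stood in T cell-like cells at 0.556% of their neutrophil-like level, which would bring 4.92 of the 267 CPM of Mcl1 counted there.

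**Figure D1:**
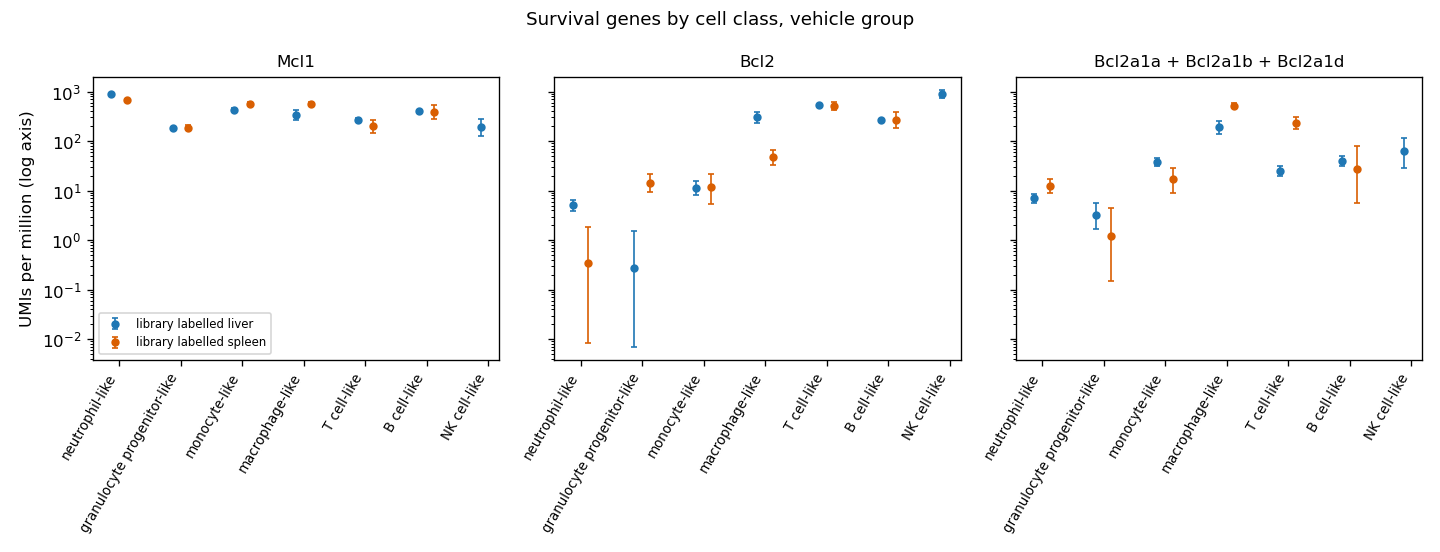
CPM (log axis) of Mcl1, Bcl2 and the sum of the Bcl2a1 copies in each cell class of the vehicle group, with 95% Poisson intervals; blue is the liver-labelled library and orange the spleen-labelled library. Mcl1 is highest in neutrophil-like cells at 885 and 676 CPM, Bcl2 is at 512 CPM or more in T cell-like cells, and the Bcl2a1 sum is highest, among the classes shown, in macrophage-like cells in both libraries.

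Across the other classes of the vehicle group, Mcl1 followed in the liver-labelled library at 433 CPM (monocyte-like), 401 (B cell-like), 335 (macrophage-like), 267 (T cell-like), 193 (NK cell-like) and 180 CPM (granulocyte progenitor-like). The interval of the macrophage-like value (266 to 417) reached those of the B and T cell-like values, and that of the NK cell-like value (128 to 279) those of the T cell-like and progenitor-like values. The granulocyte progenitor-like cells, led by Elane and Prtn3, were thus at the low end with the NK cell-like cells, and the neutrophil-like cells at the high end. Bcl2 was at 903 CPM in NK cell-like, 525 in T cell-like, 302 in macrophage-like, 262 in B cell-like, 11.4 in monocyte-like and 0.274 CPM (1 UMI) in granulocyte progenitor-like cells, and the intervals of macrophage-like (236 to 380) and B cell-like (241 to 285) cells overlapped. The macrophage-like cluster was shallow, with a median of 1479 UMIs per cell over all groups. The part of lymphocyte transcripts in its Bcl2 level was not tested. In the spleen-labelled library, Bcl2 was at 512 CPM in T cell-like, 269 in B cell-like and 46.6 CPM in macrophage-like cells. T and B cell-like levels of Bcl2 were close between the libraries, with a log2 ratio (spleen label over liver label) of -0.04 (-0.32 to 0.24) and 0.04 (-0.55 to 0.58).

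The A1 sum had another order among the classes named by markers, led in both libraries by macrophage-like cells (cluster 15, led by C1qa and Vcam1, and clusters 4 and 15 of the spleen-labelled library, led by Arg1 and by Marco), with 193 CPM and 522 CPM in the vehicle group. T cell-like cells differed between the libraries, with 24.8 CPM (liver label) and 234.0 CPM (spleen label), a log2 ratio of 3.24 (2.70 to 3.76) for the second over the first. Bcl2l11 differed there too, at 49.6 and 211.9 CPM (log2 ratio 2.09, 1.59 to 2.57). The tissue, the droplet run and the mix of T cell-like clusters cannot be told apart in this comparison: cluster 5 of the spleen-labelled library, led by Gzma, Ccl5 and Gzmb, held 24 of the 44 vehicle cells. That cluster had 5930 CPM of the 9 T cell markers, all above 0, but also 3987 CPM of the 6 NK cell markers (Klra8 at 0), against 137 CPM in cluster 13 and 17594 CPM in the NK cell-like cluster of the liver-labelled library. No cluster of the spleen-labelled library was named NK cell-like, and the part of NK cells in its T cell-like values was not tested. Vehicle neutrophil-like cells had more Bcl2l1 in the spleen-labelled library (33.5 against 16.0 CPM, log2 ratio 1.07, 0.70 to 1.42), while Mcl1, Bcl2l11, Bak1, Bid and Pmaip1 were within 2-fold between the libraries. The A1 sum was within 2-fold too (log2 ratio 0.85, 0.25 to 1.42). Bcl2 was lower in the spleen-labelled library (0.338 against 5.02 CPM, -3.89, -9.22 to -1.36), near the floor in both. Cluster 3 of that library, with 143 CPM of Bcl2l1 over all groups, held 103 of these vehicle cells, and the part of the cluster mix was not tested.

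Within the lymphocyte-like cells, A1 and BCL2 genes peaked in different clusters. Cluster 5 of the liver-labelled library, led by Ikzf2, Foxp3 and Ctla4, had 101.8 CPM of the A1 sum and 327 CPM of Bcl2. Cluster 8, led by Il7r and Tcf7, had 8.88 CPM of the A1 sum and 973 CPM of Bcl2, and 105 CPM of Bcl2l11. The remaining T cell-like clusters, 0 (Cd4, Lef1) and 4 (Cd8a), had 13.3 and 11.7 CPM of the A1 sum. A B cell-like cluster of 47 cells led by Vpreb3 and Vpreb1, genes of B cell precursors, had no Bcl2 UMI and 112.5 CPM of Bcl2l1, the reverse of the mature B cell-like cluster 1 (222 and 3.20 CPM). Clusters were made without the members among the variable genes, so their own counts were not used to form them.

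**Figure D2:**
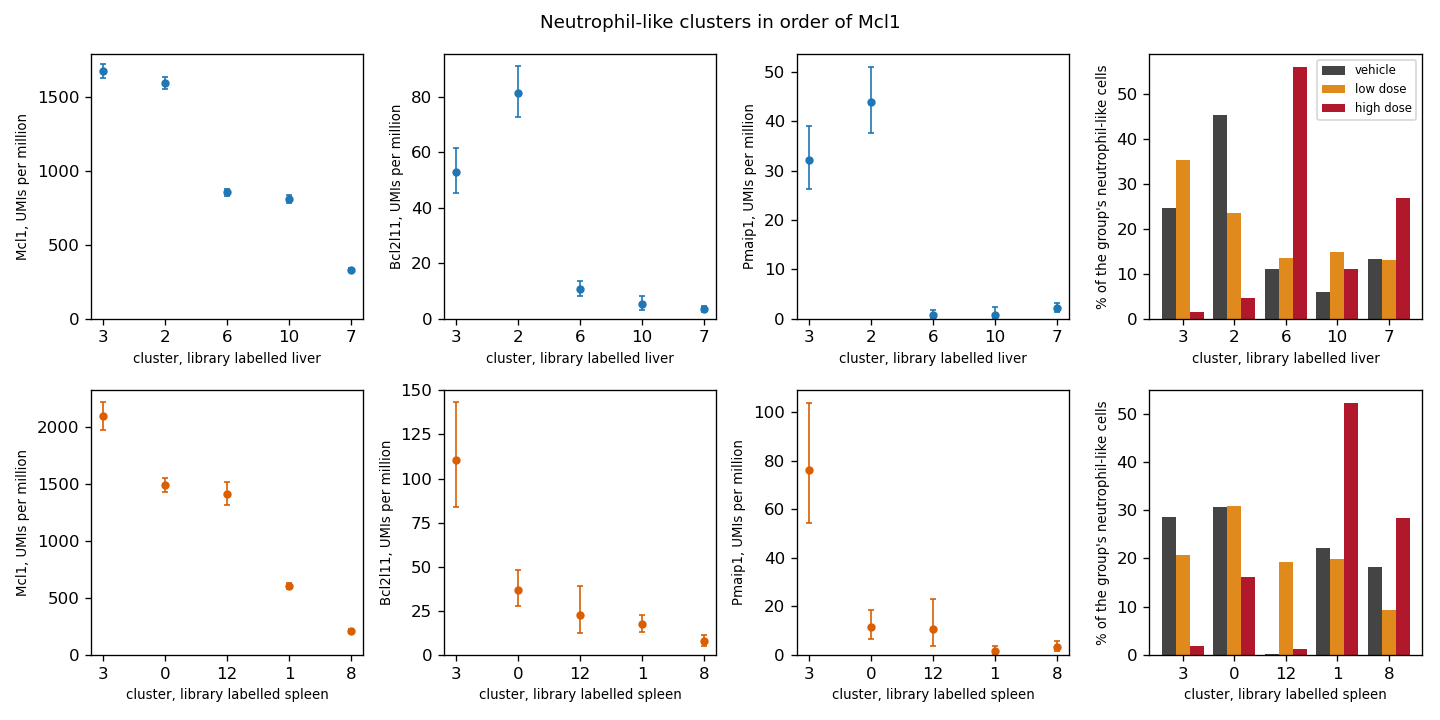
Mcl1, Bcl2l11 and Pmaip1 (CPM, 95% Poisson intervals, cells of all groups) in each neutrophil-like cluster, ordered by Mcl1, with the liver-labelled library above and the spleen-labelled library below; bars give the percent of each group's neutrophil-like cells that lie in the cluster. All 3 genes are highest in clusters 3 and 2 (above) and 3 (below), which hold few high dose cells.

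Neutrophil-like clusters spanned a wide range of Mcl1, Bcl2l11 and Pmaip1. Clusters 2 and 3 of the liver-labelled library, led by the inflammatory genes Il1b, Csf1 and, in cluster 2, Saa3, had 1595 and 1674 CPM of Mcl1, 81.5 and 53.0 CPM of Bcl2l11, and 44.0 and 32.1 CPM of Pmaip1. Clusters 6 (Stfa3, Stfa2) and 10 (Prok2, Retnlg) had 855 and 807 CPM of Mcl1, but 10.6 and 5.24 CPM of Bcl2l11 and 0.665 and 0.786 CPM of Pmaip1 (4 and 3 UMIs). Cluster 7, led by the granule genes Ltf, Camp and Ngp of immature neutrophils, was lowest in Mcl1 at 332 CPM. The spleen-labelled library had the same kind of range. Its cluster 3, led by Ccrl2, Il1b and Acod1, had 2091 CPM of Mcl1, 111 CPM of Bcl2l11, 76.4 CPM of Pmaip1, 143 CPM of Bcl2l1 and 64.9 CPM of the A1 sum. Cluster 8, led by Camp, Cebpe and Fcnb, had 208, 7.75, 3.28, 9.54 and 11 CPM of the same. The clusters high in Mcl1 were shallower, with a median of 3306 and 3512.5 UMIs per cell in clusters 2 and 3 and 22890 in cluster 7 of the liver-labelled library, and the part of depth in this order was not tested.

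The high dose was compared with the vehicle in neutrophil-like cells, the question being whether these survival and death genes differed in the cells collected 5 days after CBL0137. Pmaip1 was lower in both libraries. In the liver-labelled library it was at 15.5 CPM (185 UMIs) in the vehicle, 10.3 CPM in the low dose and 0.759 CPM (3 UMIs) in the high dose group, a log2 ratio of -4.35 (-6.64 to -2.78). In the spleen-labelled library the levels were 10.1, 10.4 and 3.45 CPM (8 UMIs), a log2 ratio of -1.56 (-2.89 to -0.40). The high dose stood lowest in both libraries. At resolution 1.6 the log2 ratio in the liver-labelled library was -2.51.

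Bcl2l11 was at 27.6, 21.4 and 9.62 CPM in the vehicle, low dose and high dose groups of the liver-labelled library, and fell by 1.52 on the log2 scale at the high dose (-2.05 to -1.03), or by 0.52, within 2-fold, at resolution 1.6. Its levels were 26.7, 24.2 and 14.7 CPM in the spleen-labelled library, a log2 ratio of -0.86 (-1.49 to -0.27), within 2-fold. The A1 sum was 6.95, 8.03 and 1.27 CPM (5 UMIs) in the liver-labelled library, a log2 ratio of -2.46 (-4.12 to -1.18), but 12.5, 14.7 and 18.5 CPM in the spleen-labelled library, 0.57 (-0.10 to 1.24), or -0.10 as a mean over cells. The lower A1 value at the high dose was thus seen in 1 library. At the high dose, macrophage markers in these cells moved with the A1 sum: their summed level was 21.3, 16.4 and 2.78 CPM in the 3 groups of the liver-labelled library, with 8, 7 and 7 of 9 markers above 0, and 73.0, 44.8 and 233 CPM in the spleen-labelled library, with 9, 9 and 8 above 0. Their part in the A1 values was not tested. Bcl2a1b fell with the sum in the liver-labelled library (49 and 3 UMIs, log2 ratio -2.43, -4.76 to -0.80), and Bcl2a1d went from 13 UMIs to 0.

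Mcl1 stayed within 2-fold, at 885, 914 and 615 CPM in the liver-labelled library and at 676, 923 and 493 CPM in the spleen-labelled library. The high dose over the vehicle gave log2 ratios of -0.53 (-0.59 to -0.46) and -0.46 (-0.56 to -0.35), so the intervals did not reach 0 and the high dose was lowest in both. Bcl2l1 was at 16.0, 15.7 and 10.1 CPM and at 33.5, 37.4 and 22.0 CPM, again lowest at the high dose. Bak1 was at 27.1, 25 and 34.7 CPM and at 32.5, 31 and 42.3 CPM, highest at the high dose, with log2 ratios of 0.35 (0.06 to 0.65) and 0.38 (-0.04 to 0.80). Bid was at 24.6, 27.5 and 24.3 CPM and at 19.3, 27 and 24.6 CPM. Bcl2 was at 6.83 and 1.29 CPM in the high dose groups, 1.04% and 0.390% of its T cell-like level, beside 1.64% and 0.812% for T cell markers.

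Of 9 members tested at the high dose in the liver-labelled library, 3 were lower (Pmaip1, Bcl2l11 and Bcl2a1b) and 0 higher, beside 13.7% lower and 0.945% higher of all genes. Of 8 in the spleen-labelled library, 1 was lower (Pmaip1) and 0 higher, beside 3.02% and 2.39%. The low dose changed 0 of 10 and 0 of 8 members, beside 0.593% higher and 2.03% lower of all genes in the liver-labelled library and 1.39% higher and 2.43% lower in the spleen-labelled library. Without the 20 most abundant genes, the low dose shares were 0.787% higher and 1.55% lower, and 1.88% and 2.09%, with 0 members in either. Both doses were compared with the same vehicle cells. Mcl1 in the spleen-labelled library, at 676 and 923 CPM, had a low dose log2 ratio of 0.45 (0.37 to 0.53). In neutrophil-like cells of the liver-labelled library, where the median of all genes at the high dose was -0.38, that of the 9 members was -0.66.

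**Figure D3:**
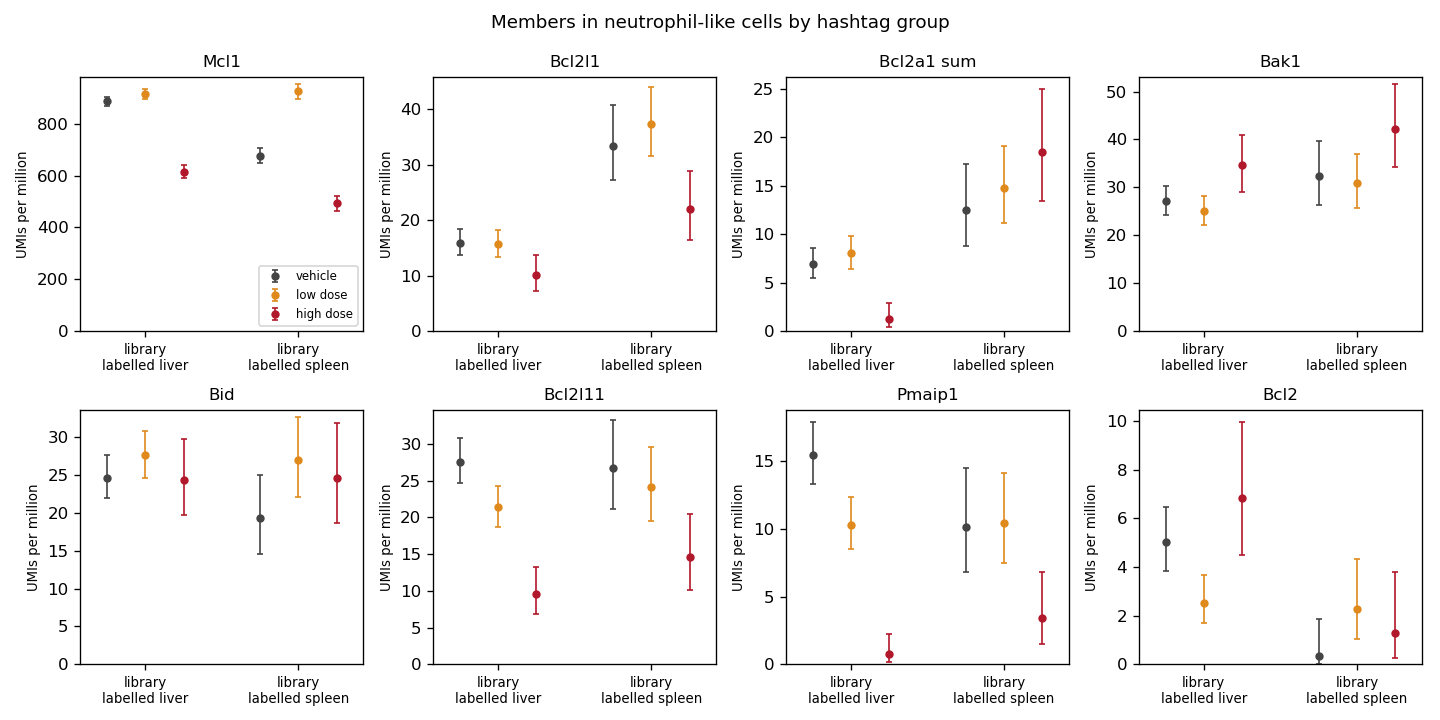
Levels of 8 members (the Bcl2a1 copies as 1 sum and 7 single genes, CPM, 95% Poisson intervals) in neutrophil-like cells of the vehicle, low dose and high dose groups of each library. Pmaip1, Bcl2l11, Mcl1 and Bcl2l1 are lowest and Bak1 is highest at the high dose in both libraries, and the Bcl2a1 sum is lowest there in the liver-labelled library alone.

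High dose and vehicle neutrophil-like cells lay in different clusters. In clusters 6 and 7 of the liver-labelled library lay 111 and 53 of its 198 high dose cells, with 9 and 3 in clusters 2 and 3, which held 647 and 351 of the 1426 vehicle cells. Clusters 1 and 8 of the spleen-labelled library held 81 and 44 of its 155 high dose cells, with 3 in cluster 3, which held 103 of the 361 vehicle cells. The high dose cells were also deeper, with a median of 18598 UMIs against 4360 in the liver-labelled library and 14147 against 4929 in the spleen-labelled library.

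Within clusters the differences in Mcl1 were small. High dose over vehicle gave log2 ratios of -0.09 (-0.19 to 0.01) in cluster 6, 0.06 (-0.08 to 0.21) in cluster 7 and -0.09 (-0.29 to 0.11) in cluster 10 of the liver-labelled library. They were -0.20 (-0.41 to 0.01), 0.01 (-0.15 to 0.18) and 0.28 (-0.01 to 0.56) in clusters 0, 1 and 8 of the spleen-labelled library. All 6 intervals reached 0. Bcl2l11 was at 24 high dose and 18 vehicle UMIs in cluster 6 (log2 ratio 0.50, -0.44 to 1.47) and at 7 and 17 in cluster 7 (0.35, -1.16 to 1.69), so the lower level of the whole class was not seen within these clusters. It was at 6 and 4 UMIs in cluster 10, a log2 ratio of 2.27 (0.19 to 4.54). Clusters 1 and 8 of the spleen-labelled library had Bcl2l11 log2 ratios of -0.53 (-1.53 to 0.45) and -0.57 (-2.02 to 0.76), on the side of the class value, and cluster 0 had 0.40 (-0.95 to 1.64). All 3 intervals reached 0. Pmaip1 had 2 UMIs in each group in cluster 6 and 1 against 9 in cluster 7 of the liver-labelled library (log2 ratio -1.54, -7.00 to 1.31), so few that no difference was detectable within these clusters at this depth. In the spleen-labelled library, clusters 0, 1 and 8 held 17, 5 and 11 Pmaip1 UMIs over all groups, and their group values are not given. The A1 sum in the spleen-labelled library had 5 high dose and 10 vehicle UMIs in cluster 1 (log2 ratio -1.16, -3.06 to 0.52), 20 and 12 in cluster 8 (1.07, -0.03 to 2.24), and 15 and 1 in cluster 0 (5.22, 2.52 to 10.62), where there were 25 high dose and 111 vehicle cells. Macrophage markers in cluster 0 were at 979 CPM in the high dose and 60 CPM in the vehicle cells, and at 141 and 15.6 CPM in cluster 8.

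Monocyte-like cells (Ccr2, F13a1), 1 cluster in each library, differed between groups in A1. The sum was at 16.8 CPM (13 UMIs), 78.7 CPM and 214.9 CPM (127 UMIs) in the vehicle, low dose and high dose groups of the spleen-labelled library, log2 ratios of 2.23 (1.37 to 3.21) and 3.68 (2.85 to 4.63) over the vehicle. In the liver-labelled library it was at 38.2, 109.3 and 39.9 CPM, with log2 ratios of 1.52 (1.19 to 1.85) for the low and 0.06 (-0.62 to 0.69) for the high dose. The low dose was thus higher than the vehicle in both libraries, and the high dose in 1. Few cells carried these UMIs: the 5 cells with the most held 82.7% of those in the 40 high dose cells of the spleen-labelled library, and 1 cell held 40 UMIs. None of those 5 cells was a doublet by Scrublet, but it called only 1 barcode of this library, so this check could hardly have found one. Their median depth was 15980 UMIs against 14425.5 in the group. With barcodes called by MULTIseqDemux, 69 high dose cells gave a log2 ratio of 1.33 for the sum, and clusters at resolution 0.4, with 123, gave 0.65; the low dose gave 0.60 and 0.23. In the liver-labelled library, the 5 cells with the most A1 UMIs held 56.7% of them in the vehicle and 47.3% in the low dose group. These shares were 76.9% and 58.9% in the spleen-labelled library. Macrophage markers were at 146, 211 and 152 CPM in the monocyte-like cells of the 3 groups there and at 95.1, 284 and 134 CPM in the liver-labelled library. Dendritic cell markers were at 223, 198 and 264 CPM with the spleen label and at 206, 172 and 228 CPM with the liver label. The part of either in the A1 values was not tested.

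At the high dose, 2 of 8 members tested were higher in monocyte-like cells of the spleen-labelled library (Bcl2a1a and Bcl2a1b), beside 3.35% of all genes, and 1 of 10 in the liver-labelled library (Bcl2, 11.4 and 44.7 CPM, 38 and 28 UMIs), beside 3.04%. At the low dose the A1 genes Bcl2a1a and Bcl2a1b were higher in both libraries, 2 of 10 members beside 1.8% of all genes and 2 of 9 beside 2.61%. Mcl1 in the same cells was at 433, 528 and 465 CPM and at 569, 715 and 611 CPM, within 2-fold. This comparison was taken up after its values were seen. Bcl2a1a and Bcl2a1b are near-identical copies, so the counts of 2 are not 2 separate results and do not speak for the family as a whole.

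**Figure D4:**
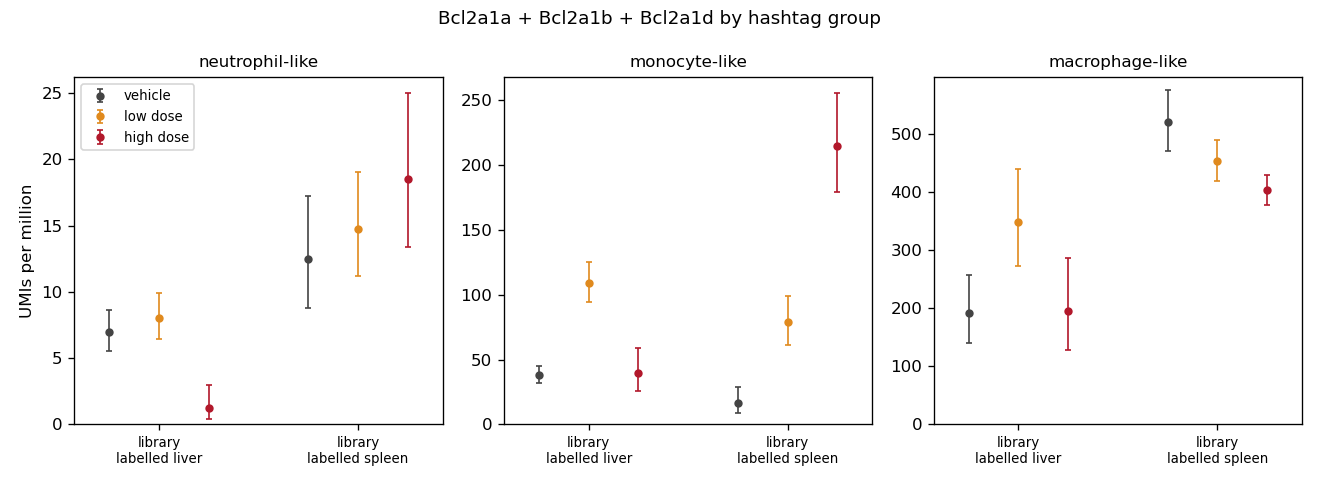
Sum of Bcl2a1a, Bcl2a1b and Bcl2a1d (CPM, 95% Poisson intervals) in neutrophil-like, monocyte-like and macrophage-like cells of the 3 groups in each library; the vertical scales differ between panels. Monocyte-like cells reach 214.9 CPM at the high dose in the spleen-labelled library and 109.3 CPM at the low dose in the liver-labelled library, and macrophage-like cells stay above 190 CPM in every group.

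Macrophage-like cells kept a high A1 sum, 193, 349 and 196 CPM in the vehicle, low dose and high dose groups of the liver-labelled library and 522, 454 and 403 CPM in the spleen-labelled library. Bcl2l11 in the latter was at 95.9, 65.0 and 42.3 CPM, a log2 ratio of -1.18 (-1.64 to -0.72) at the high dose, so BIM transcripts were lower at the high dose in macrophage-like cells of this library as a class. The mix of clusters differed: cluster 4 (65.7 CPM over all groups) held 50 vehicle and 82 high dose cells, and cluster 15 (29.7 CPM) held 6 and 39. Within cluster 4 the levels were 93.3 and 49.1 CPM, a log2 ratio of -0.93 (-1.41 to -0.44), within 2-fold. In the liver-labelled library these cells had 9, 5 and 3 Bcl2l11 UMIs, too few to compare.

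T cell-like cells were compared next, since BCL2 is known to support the survival of lymphocytes. Bcl2 stood at 525, 362 and 658 CPM in the vehicle, low dose and high dose groups of the liver-labelled library, with log2 ratios of -0.54 (-0.64 to -0.44) for the low and 0.33 (0.24 to 0.41) for the high dose. It stood at 512, 406 and 331 CPM in the spleen-labelled library, log2 ratios of -0.33 (-0.66 to -0.01) and -0.63 (-0.92 to -0.32). These 4 class values were within 2-fold. The low dose was below the vehicle in both libraries, while the high dose was above it in one and below it in the other, where the log2 ratio was -0.07 at resolution 1.6. Within the 4 T cell-like clusters of the liver-labelled library, the low dose gave log2 ratios of -0.35 (cluster 0), -0.55 (cluster 4), -0.88 (cluster 5) and -1.01 (cluster 8), and the high dose gave 0.69, 0.18, 0.11 (-0.17 to 0.40) and 0.14 (-0.05 to 0.34). In the spleen-labelled library, Bcl2 at the high dose was lower in cluster 13, led by Il7r and Lef1 (846 and 388 CPM, log2 ratio -1.12, -1.61 to -0.62), and at -0.31 (-0.70 to 0.09) in cluster 5, and the low dose gave -0.39 (-0.87 to 0.10) and -0.43 (-0.87 to 0.03). Cluster 13 held only 20 vehicle and 52 high dose cells, and cluster 5 held 24 and 117. B cell-like cells had 262, 181 and 225 CPM of Bcl2 in the liver-labelled library and 269, 158 and 189 CPM in the spleen-labelled library, lowest at the low dose in both. The spleen-labelled values rested on 29, 20 and 58 UMIs. Their log2 ratios over the vehicle had intervals that reached 0 at the low (-1.66 to 0.11) and the high dose (-1.17 to 0.19). NK cell-like cells of the liver-labelled library, with 33 vehicle cells, had 903, 377 and 404 CPM.

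**Figure D5:**
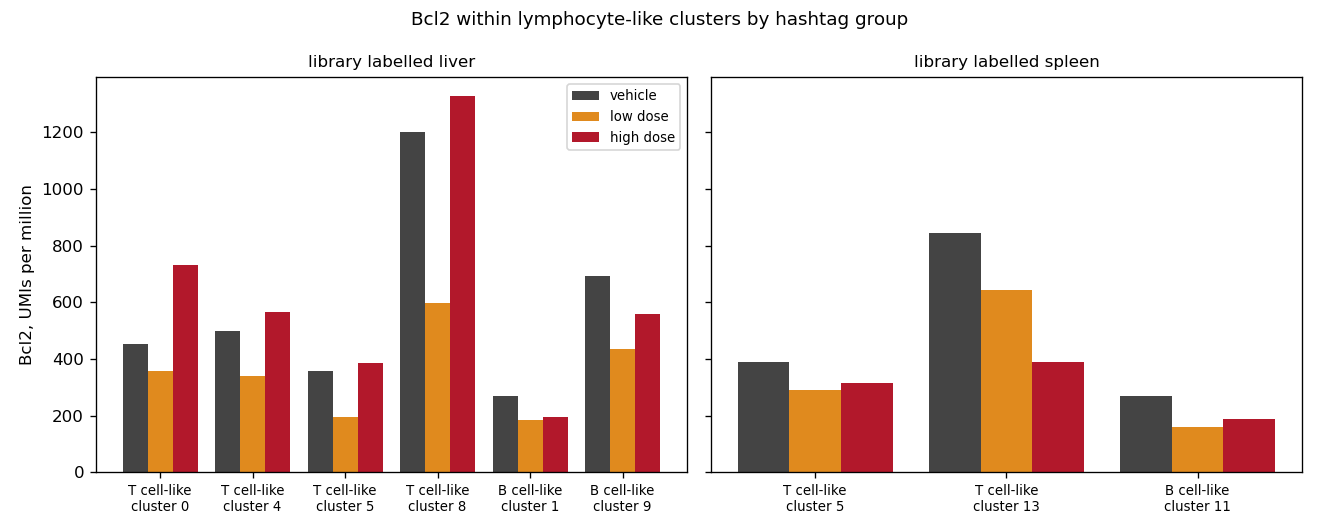
Bcl2 (CPM, no interval drawn) in each T and B cell-like cluster with at least 20 cells in the vehicle and the dose group, by hashtag group and library. The low dose bar is below the vehicle bar in all 9 clusters shown, and the high dose bar is above it in the 4 T cell-like clusters of the liver-labelled library and below it in the other clusters.

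Of 9 members tested in T cell-like cells at the high dose of the liver-labelled library, 2 were higher (Bcl2a1d, 7 and 35 UMIs, and Pmaip1, 4 and 23 UMIs) and 0 lower, beside 1.23% higher and 0.874% lower of all genes. Pmaip1 was at 1.32 and 4.12 CPM (log2 ratio 1.64, 0.09 to 3.63), and of its 23 high dose UMIs 14 were in cluster 5, the one led by Ikzf2 and Foxp3, where the vehicle had 0. Of the 35 Bcl2a1d UMIs, 31 were in the same cluster, which held 13.7% of vehicle and 21.6% of high dose T cell-like cells, and within it the Bcl2a1d log2 ratio was 0.65 (-0.63 to 2.21). NK cell markers in this cluster were at 54.6, 105 and 283 CPM in the vehicle, low dose and high dose groups. T cell markers there were at 6138, 6169 and 6300 CPM. The part of NK cells in these values was not tested. In the spleen-labelled library 1 of 9 was lower and 0 higher, beside 2.56% and 4.73%. That gene was Bcl2l11, at 211.9, 114.4 and 67.9 CPM in the 3 groups, a log2 ratio of -1.64 (-2.16 to -1.11), and of -1.80 (-2.39 to -1.20) within cluster 5 of that library. In that cluster, NK cell markers were at 2797 CPM in the 24 vehicle cells and 4671 CPM in the 117 high dose cells. T cell markers were at 6406 and 5492 CPM, and the part of this mix was not tested. The vehicle value of Bcl2l11 in the class rested on 44 cells and 48 UMIs. Bcl2l11 in T cell-like cells of the liver-labelled library was at 49.6, 56.9 and 44.8 CPM, with no such order. Mcl1 was at 267, 278 and 280 CPM and at 199, 240 and 194 CPM.

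B cell-like cells of the liver-labelled library differed in Bcl2l1 and Bcl2l11. Bcl2l1 was at 15.2, 2.61 and 0.584 CPM (32, 5 and 1 UMIs) in the vehicle, low dose and high dose groups. The Vpreb3 cluster, which carried the most Bcl2l1, held 46 vehicle cells, 1 low dose cell and 0 high dose cells. Within cluster 1 alone Bcl2l1 had 11 vehicle, 3 low dose and 1 high dose UMIs. Bcl2l11 was at 30.5, 75.1 and 27.5 CPM, higher at the low dose by 1.30 (0.87 to 1.75) on the log2 scale. Here, too, the clusters differed: cluster 16 (146.5 CPM of Bcl2l11) held 149 of 550 low dose cells, 2 vehicle cells and 8 high dose cells, and within cluster 1 the low dose over vehicle log2 ratio was 0.11 (-0.50 to 0.71).

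The wider pathway was followed with a list of 36 genes of mitochondrial apoptosis, caspases, their inhibitors and death receptors. In the vehicle group 29 were tested in the liver-labelled library, of which 7 were higher and 12 lower in neutrophil-like cells, and 22 in the spleen-labelled library, with 3 higher and 7 lower. Of all genes, 13.1% and 9.19% were higher and 55.6% and 39.5% lower, so the share of listed genes that was lower was below that of all genes in both libraries. Bnip3, a BCL2-related gene of mitophagy, was higher in both (56.5 against 7.98 CPM and 95 against 23.9 CPM), as were the executioner caspase gene Casp6 and Birc5. Bax, the partner of Bak1, was lower in both (40.1 against 115.8 CPM and 65.9 against 176.5 CPM), as were Casp2, Casp8, Birc2 and Birc6.

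At the high dose, 1 of 26 listed genes tested was higher and 6 were lower in neutrophil-like cells of the liver-labelled library, and 0 and 2 of 25 in the spleen-labelled library, beside 0.945% and 13.7%, and 2.39% and 3.02%, of all genes. Bnip3 (56.5 to 11.9 CPM and 95 to 23.7 CPM) and the death receptor gene Fas (41.7 to 19.0 CPM and 25 to 9.49 CPM) fell in both libraries. Bax, Bcl2l15, Casp9 and Birc3 fell in the liver-labelled library, and the death receptor gene Tnfrsf10b rose there (2.68 to 5.82 CPM). All are values of the whole class, whose high dose and vehicle cells lay in different clusters. The part of this mix in the pathway genes was not tested. At the low dose 1 of 26 and 2 of 25 were higher, beside 0.593% and 1.39% of all genes. Bcl2l15, a BCL2-like gene, rose in both libraries, from 5.77 to 27.7 CPM (log2 ratio 2.26, 1.88 to 2.66) and from 5.07 to 118.5 CPM (4.55, 3.81 to 5.40), and led cluster 12 of the spleen-labelled library, where 119 of 122 cells were of the low dose. Bbc3, the PUMA gene, was the other low dose rise, 3.38 to 9.16 CPM in the spleen-labelled library. In T cell-like cells at the high dose, 1 of 27 (Birc5, higher) and 1 of 24 (Bbc3, lower) changed, beside 1.23% higher and 2.56% lower of all genes.

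By Pearson correlation of log2(CPM + 10) over 35 sums of class, group and library and 8468 genes, the genes most like Bcl2 were Ablim1, Prkca, Kmt2a, Mllt6 and 1300002E11Rik (0.961 to 0.958). Those most like Mcl1 were Osbpl9 (0.912), Tmcc1, Ypel5, Iqgap1 and Fuca1 (0.884). The A1 sum was most like Pltp (0.881), Plekhb2, Rgs1, Ckb and the macrophage marker C1qb (0.833). The sums share libraries and depth, so these values are a description.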

How the data were processed

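Single-cell RNA was measured in 2 libraries, named by their labels liver and spleen. For each, the authors deposited a filtered matrix of UMI counts of genes and hashtags, made with Cell Ranger (6.0.0 per the labels, 5.0.0 per the matrix header) against mm10 and not normalized. The members and lists were chosen with earlier results of these data known. HTODemux (Seurat 5.3.0, R 4.3.3, quantile 0.99) assigned the hashtags, and barcodes with 1 hashtag were kept. It removed 616 and 215 doublets and left 540 and 1627 barcodes negative. Each library was clustered alone (SCTransform 0.4.2, 30 components, resolution 0.8), without the members and the pathway list, which left 2984 and 2980 of 3000 variable genes. Naming a cluster took 3 or more markers from 1 list, each with a log2 fold of 1 or more over other cells (10 CPM added) and seen in at least 20% of the cells. Its leading 10 genes could not hold more markers of a different list. Doublets within a hashtag (Scrublet of scanpy 1.11.5, 248 and 1 called) were removed in an alternative only. Sums carry exact Poisson intervals, ratios exact conditional binomial and shares Clopper-Pearson intervals, computed with scipy 1.17.1. The ratio was tested on simulated data. The named genes are the 10 members and the called genes of the pathway list. Motifs were searched in RefSeq promoters, and transcript windows in GENCODE release 21. The alternatives were MULTIseqDemux, resolutions 0.4 and 1.6, a filter (at least 200 genes, under 10% mitochondrial UMIs), all variable features, removal of Scrublet doublets, CPM without the 20 most abundant genes, a mean over cells, a minimum of 50 UMIs and thinning to 1000 UMIs. The monocyte-like comparison and its alternatives were added after seeing the data. Of the called genes of the pathway list, 1 is not reported here.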

Additional observations from a re-analysis of the deposited data

Results flagged for a closer look

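Differences between libraries or classes stood out because the counting intervals lay on opposite sides of 0 under the same contrast of high dose and vehicle. These differences were not tested. Bcl2 in T cell-like cells had log2 ratios of 0.33 (liver label) and -0.63 (spleen label), 0.95 apart; at resolution 1.6 the second was -0.07. Pmaip1 in the liver-labelled library was lower at the high dose in neutrophil-like cells (-4.35) and higher in T cell-like cells (1.64), a difference of -5.99. The neutrophil-like value rested on 3 high dose UMIs and was smaller in size at resolution 1.6. The T cell-like value rested on 23 high dose and 4 vehicle UMIs (interval 0.09 to 3.63). The A1 sum in the same library was -2.46 in neutrophil-like and 0.44 in T cell-like cells, a difference of -2.90. Macrophage markers in these neutrophil-like cells were at 21.3 CPM in the vehicle and 2.78 CPM in the high dose group, and their part was not tested.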

How the results depend on the processing

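No paired analysis was possible because the groups hold 1 pooled sample each, and no replicate could be left out. Of 108 counts of changed members and pathway genes, 96 stayed within 1.5 times. Of 947 log2 ratios, 878 stayed within their interval, 65 moved out of it and 4 reversed. In the liver-labelled library, resolution 1.6 gave 5 for the high dose and 2 for the low dose in neutrophil-like cells (10 and 1 before), with 929 of 1426 vehicle cells left in the class. It moved the Pmaip1 log2 ratio of neutrophil-like over lymphocyte-like cells from 2.03 to 0.02, and of high dose over vehicle from -4.35 to -2.51, and Bcl2l11 at the high dose from -1.52 to -0.52. A mean over cells gave 0 for the low dose there and 8 for the high dose in the spleen-labelled library (3 before). A minimum of 50 UMIs gave 1 for T cell-like cells at the high dose in both libraries (3 and 2 before), and, in the spleen-labelled library, 1 for neutrophil-like and 1 for monocyte-like cells at the low dose (2 and 3 before). The cell filter gave 1 for neutrophil-like and 1 for T cell-like cells at the high dose in the spleen-labelled library, and MULTIseqDemux and resolution 0.4 each gave 1 for monocyte-like cells at the low dose there. Values were counted as reversed where the interval before did not reach 0 and the sign changed. They were Bcl2l11 in neutrophil-like over lymphocyte-like cells of the liver-labelled library (0.024 without the 20 most abundant genes and 0.54 as a mean over cells, from -0.68), Mcl1 at the low dose in neutrophil-like cells of that library (-0.10, from 0.05) and Pmaip1 at the low dose in monocyte-like cells of the spleen-labelled library (-0.18, from 0.88), both as a mean over cells. The cause was not tested. Of 12 shares of cells with a UMI, 6 moved with thinning to 1000 UMIs.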

Other observations

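Over the cells of all groups, the highest A1 sum of each library was in a cluster that no marker list named. Cluster 13 of the liver-labelled library (242 cells) and cluster 6 of the spleen-labelled library (195 cells), both led in part by the MHC class II genes H2-Aa, H2-Eb1 and H2-Ab1, had 353 and 523.5 CPM of the A1 sum and 54.8 and 109.4 CPM of Pmaip1. On the same basis the macrophage-like clusters had 249 CPM of the A1 sum (cluster 15, liver label) and 509 and 157 CPM (clusters 4 and 15, spleen label). In the spleen-labelled library the intervals of clusters 6 (482 to 568) and 4 (486 to 533) overlapped. Cluster 14 of the liver-labelled library (232 cells, led by mitochondrial genes, median 870 UMIs) had 759 CPM of Bcl2 and 7.27 CPM (2 UMIs) of the A1 sum.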
